A study of Danio rerio with 2 samples.

Results

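Claudins, occludins and zonula occludens proteins build the tight junction, the belt of contacts that seals neighbouring epithelial cells near their apical side. The genes described here are all those whose symbol in the deposited gene list begins with cldn, tjp or ocln. They number 41 of the 27597 genes listed, namely 34 cldn, 5 tjp and 2 ocln genes. Detection was set at 50 or more unique molecular identifiers (UMIs, each a tag that marks 1 captured transcript) over both libraries, and 24 of the 41 passed, 17 of them cldn genes and all of the tjp and ocln genes. The remaining 17, all claudins, had at most 46 UMIs each (*cldn5a*) and 212 of the 173086 UMIs of the whole group. No UMI was found for *cldn10a*, *cldn15b* and *cldn15la*.

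The samples were whole zebrafish embryos at shield stage, the onset of gastrulation, fixed during dissociation with acetic acid and methanol (ACME). DAPI-stained single cells were sorted, and 1 droplet library with 3′ counting (10x Chromium v3.1) was made per genotype. The MZwnt11/slb library came from embryos that lack both maternal and zygotic function of the Wnt ligand Wnt11, encoded by *wnt11f2* (silberblick), and the wild-type library from embryos of the A2B2 strain named in the study's methods. The number of embryos per library is not known here. The MZwnt11/slb library held 7911 cells, 40025626 UMIs and a median of 4595 UMIs per cell, and the wild-type library 8862 cells, 37370253 UMIs and a median of 3874, with 16 cell barcodes in common. The level of *wnt11f2* was 41.4 CPM (UMIs of a gene for each 1000000 UMIs of the library or class) in the MZwnt11/slb library and 99.3 CPM in the wild-type library. Counting at the 3′ end also picks up mutated transcripts, and the level is therefore no check of the genotype.

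Claudins are membrane proteins that span the membrane several times, line the cell–cell contact and set which ions and molecules pass between the cells. Occludins belong to the MARVEL family of junction membrane proteins. The tjp genes encode zonula occludens (ZO) scaffolds, among them the tjp1 paralogues (ZO-1) and *tjp3* (ZO-3), which bind claudins and occludin inside the cell and tie them to the actin cortex. The cldnd1 genes encode more distant relatives of the claudins. In the early zebrafish embryo the enveloping layer (EVL), a thin outer epithelium rich in keratins, covers the deep cells that form the embryo proper, and its cells are joined by tight junctions. Yolk syncytial layer (YSL) nuclei lie under both.

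Cell classes were rebuilt by clustering cells of both libraries on all genes except the 41, and naming the clusters by marker genes. EVL-like cells were clusters 9, 10 and 12, with 777 cells (9.82% of the library) in MZwnt11/slb and 825 cells (9.31%) in wild type. The EVL keratins and other EVL markers, 15 of 16 found in the files, summed to 78024 CPM in MZwnt11/slb and 88167 CPM in wild-type EVL-like cells. In deep cells, defined as all cells outside EVL-like and YSL-like clusters, they summed to 730.4 CPM in each library (7053 MZwnt11/slb and 7895 wild-type cells). The same markers named these clusters, so the sums are no separate support for the name. Of the deep sum, 298 CPM in MZwnt11/slb and 225 CPM in wild type were of *cfl1l*, which had 319 CPM and 267 CPM in EVL-like cells. Sums of EVL markers in deep classes are therefore no measure of EVL RNA alone. Cluster 10 (588 cells) held MZwnt11/slb cells only and cluster 9 (675 cells) wild-type cells only, and cluster 12 held 189 MZwnt11/slb and 150 wild-type cells.

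The tight junction genes were concentrated in the enveloping layer. Together the 41 genes made up 11173 CPM in EVL-like cells of MZwnt11/slb and 862 CPM in its deep cells, a ratio of 13.0-fold (log2 3.70, 95% interval 3.68 to 3.72). In wild type they made up 12642 CPM in EVL-like and 847 CPM in deep cells, a ratio of 14.9-fold (log2 3.90, 3.88 to 3.92). These intervals, and all others given per library, cover counting error only. Reads are counted at the 3′ end, 1 UMI per molecule, so a level is not divided by transcript length.

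Class differences were tested on UMIs summed per library and class with edgeR's quasi-likelihood test, with library as a term, and Benjamini-Hochberg adjustment over the 13347 genes with at least 50 UMIs. Of the 24 detected genes, 17 were higher in EVL-like cells, 0 were lower and 7 were not called at an adjusted p of 0.05. Of all genes tested 18.3% were higher and 16.5% were lower. Beside the 0, no gene was lower at an unadjusted p under 0.05 (count 0) and DESeq2 gave 0 as well. The 17 comprised 12 of the 17 cldn genes, 3 of the 5 tjp genes and both ocln genes. The median fitted log2 difference was 2.27 over the 24 genes, with −0.037 over all genes tested. Because 3 claudins (*cldnk*, *cldna* and *cldnc*) had fewer than 50 UMIs in deep cells and so were tested only because of their EVL-like counts, the count was also taken over the 21 genes with 50 UMIs in deep cells alone, of which 14 were higher (median log2 1.06). Among the 14, *cldne*, *cldnb* and *cldnf* had deep levels within the range of EVL keratins given below, so they may have passed through EVL RNA. The share of all genes under this filter is not given, so this count is not read as a result about the tight junction genes.

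The calls near 0 depend on the scale. The trimmed mean (TMM) scaling raised EVL-like over deep differences by 0.48 in MZwnt11/slb and 0.50 in wild type on the log2 scale relative to the library totals on which CPM rests. With library totals in its place, a choice added after the data were seen, the median of all genes was −0.52, 1569 genes were higher and 5103 lower (23.5% of the called genes higher, against 2449 and 2200, or 52.7%, with TMM), and 14 of the 24 tight junction genes were higher and 3 lower. All fitted differences below are on the TMM scale unless stated, and levels are in CPM.

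**Figure D1:**
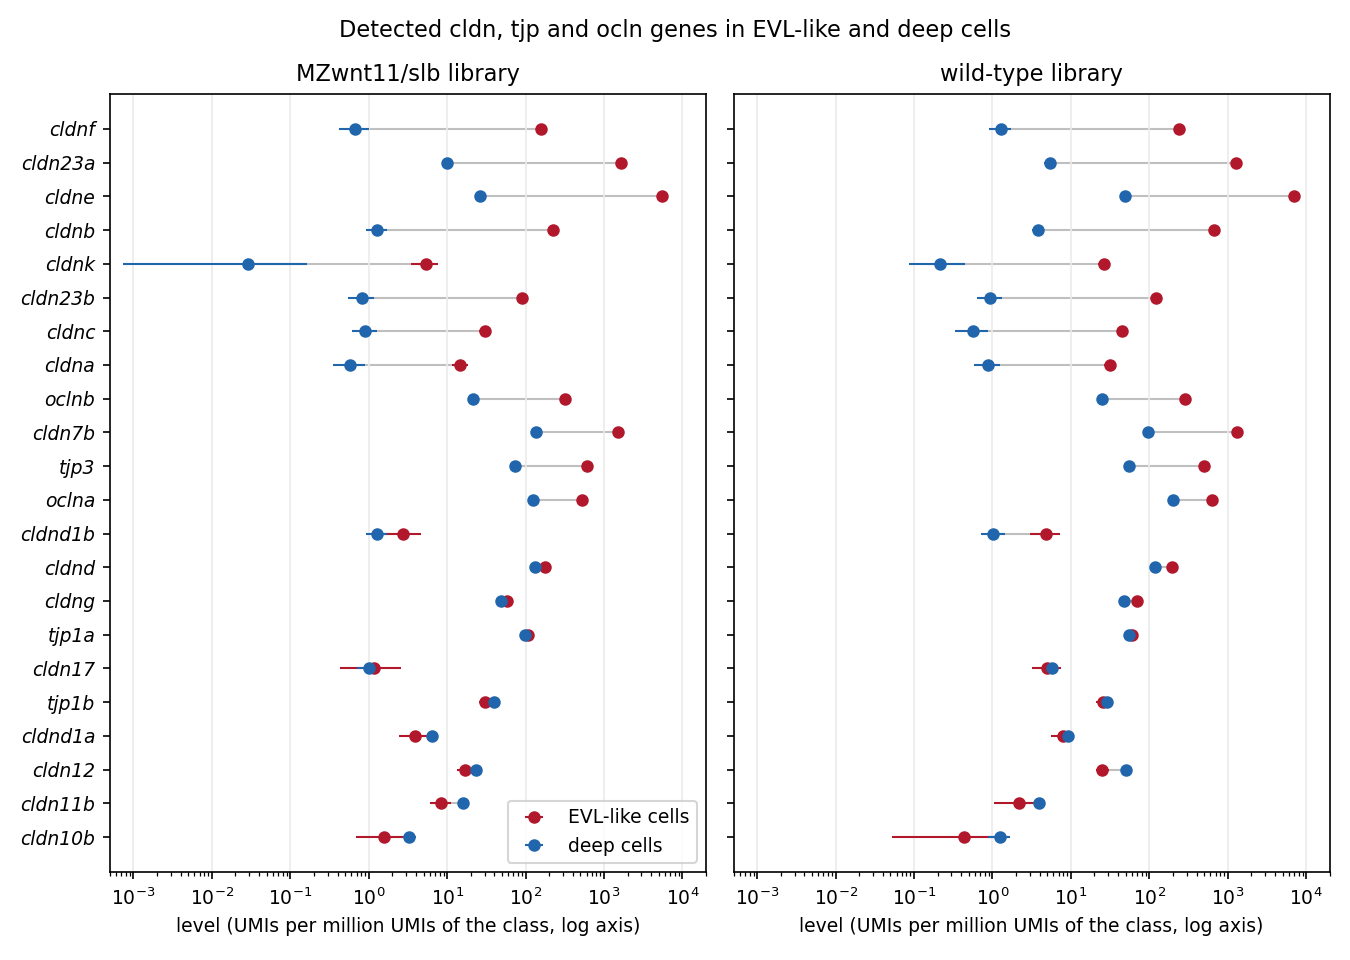
Level of detected cldn, tjp and ocln genes in EVL-like (red) and deep (blue) cells of the MZwnt11/slb library (left) and the wild-type library (right), in CPM on a log axis, ordered by the fitted difference. Points are 1 sum per class and library and bars are exact 95% Poisson intervals. The upper genes differ by orders of magnitude, with cldne at 5562 CPM in EVL-like and 26.3 CPM in deep cells of MZwnt11/slb, and from cldnd downwards the points lie close together.

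A group of claudins was almost confined to the EVL-like cells and the small cluster 16 in these libraries. Cluster 16, counted as deep and described below, had *cldne* at 1996 CPM in MZwnt11/slb and 3731 CPM in wild type. The most abundant, *cldne* (ENSDARG00000043128), reached 5562 CPM in MZwnt11/slb and 7027 CPM in wild-type EVL-like cells, against 26.3 CPM and 48.7 CPM in deep cells of the same libraries. It alone supplied 49.8% of all tight junction gene UMIs of EVL-like cells in MZwnt11/slb and 55.6% in wild type. Its fitted log2 difference was 7.94 ± 0.15 (SE derived from the F statistic, adjusted p = 1.6e-09). *cldn23a* (ENSDARG00000028096) had 1643 CPM in MZwnt11/slb and 1267 CPM in wild-type EVL-like cells, against 9.89 CPM and 5.36 CPM in deep cells, a fitted log2 difference of 8.11 ± 0.16 (adjusted p = 2.3e-09). For both genes the EVL-like level was far above the deep level in each library, with log2 ratios of CPM of 7.73 and 7.17 for *cldne* and 7.38 and 7.88 for *cldn23a* in MZwnt11/slb and wild type.

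The same pattern held at lower levels for *cldnb*, *cldnf*, *cldn23b* and *cldnk*. *cldnb* (ENSDARG00000009544) had 222 CPM in MZwnt11/slb and 672 CPM in wild-type EVL-like cells, against 1.27 CPM and 3.84 CPM in deep cells (log2 7.94 ± 0.14, adjusted p = 1.4e-09). *cldnf* had 157 CPM and 242 CPM in EVL-like cells of MZwnt11/slb and wild type, against 0.665 CPM and 1.27 CPM in deep cells, and showed the highest fitted difference of the 24 (log2 8.19 ± 0.18, adjusted p = 3.0e-09). For *cldn23b* the fitted log2 difference was 7.39 ± 0.19, from 88.9 CPM and 122 CPM in EVL-like cells. *cldnk* was the rarest of them, with 27 UMIs in MZwnt11/slb and 123 UMIs in wild-type EVL-like cells against 1 UMI and 7 UMIs in deep cells. Its log2 ratio of levels was 7.52 (4.92 to 12.88) in MZwnt11/slb and 6.94 (5.85 to 8.28) in wild type.

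*cldnc* and *cldna* followed with fitted log2 differences of 6.14 ± 0.32 and 5.44 ± 0.27. *cldnc* had 153 UMIs in MZwnt11/slb and 209 UMIs in wild-type EVL-like cells, against 31 and 18 UMIs in deep cells. Of those 31 deep UMIs 27 came from the 18 MZwnt11/slb cells of cluster 16, and without that cluster the fitted log2 difference of *cldnc* was 7.76, a fold of 217 against 70.3 with it. For *cldna*, 75 UMIs and 147 UMIs were counted in EVL-like cells of MZwnt11/slb and wild type and 20 and 28 UMIs in deep cells.

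Several of these claudins are neighbours in the genome. In the RefSeq gene table of the GRCz12tu assembly, which is not the build of the counts, *cldnj*, *cldne*, *cldnf* and *cldna* stand next to each other, and so do *cldnh*, *cldnc* and *cldnb*, with only *cldn29* between *cldnb* and *cldnd*. The table matched 40 of the 41 genes and puts *cldn23a* (there *cldn23.1*) beside another cldn23 gene, *cldn23.2*. In the first row *cldne*, *cldnf* and *cldna* were all higher in EVL-like cells, while *cldnj* had 6 UMIs in all. In the second row *cldnc* and *cldnb* were higher in the fit (70.3-fold and 245-fold), *cldnh* had 23 UMIs in all, and *cldnd* differed by 2.08-fold. Some claudins are listed under other symbols and were therefore not among the 41. Of 8 such identifiers 3 had at least 50 UMIs, and *zgc:110333* (now *cldn8.2*, 8507 UMIs) and *zgc:136892* (now *cldn30*, 1262 UMIs) were higher in EVL-like cells as well, by log2 8.15 ± 0.14 and 8.38 ± 0.19. Unlike the 41 genes, these were not left out of the clustering that made the classes. The gene counted as *cldn17* overlaps *cldn8.2* in that table, so their reads may not be separable. Other detected genes that overlap a neighbour there are *cldn7b*, *cldn12*, *cldng* and *cldn10b*, and reads may be shared between such neighbours.

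A further set was high in EVL-like cells and was also counted in most classes of deep cells. *cldn7b* (ENSDARG00000014047) had 1490.2 CPM in MZwnt11/slb and 1330.2 CPM in wild-type EVL-like cells, against 135 CPM and 95.9 CPM in deep cells (log2 4.12 ± 0.12, adjusted p = 1.4e-08). Both occludins behaved alike in direction and differed in size. *oclnb* (ENSDARG00000003091) had 317 CPM and 286 CPM in EVL-like cells of MZwnt11/slb and wild type, against 21.6 CPM and 24.8 CPM in deep cells (log2 4.19 ± 0.14, adjusted p = 3.4e-08). *oclna* (ENSDARG00000005108) had 527 CPM and 628 CPM in EVL-like cells, against 123 CPM and 199 CPM in deep cells (log2 2.37 ± 0.13, adjusted p = 8.9e-07). In deep cells *oclna* was thus the more abundant occludin, and 14.3% of tight junction gene UMIs in MZwnt11/slb and 23.5% in wild-type deep cells were of *oclna*.

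Of the ZO scaffolds given here, *tjp3* had the highest fitted difference. *tjp3* (ZO-3, ENSDARG00000002909) had 603 CPM in MZwnt11/slb and 502 CPM in wild-type EVL-like cells, against 72.3 CPM and 55.7 CPM in deep cells (log2 3.60 ± 0.11, adjusted p = 2.2e-08). *tjp1a* (ZO-1) had 107 CPM and 59.8 CPM in EVL-like cells, against 98.8 CPM and 55.8 CPM in deep cells. It was called higher in the fit (log2 0.60 ± 0.13, adjusted p = 0.0063), and the call did not hold with library totals (log2 0.11, adjusted p = 0.50) or without the library term (adjusted p = 0.55).

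The other ZO-1 paralogue was not called in the fit. *tjp1b* had 30.3 CPM in MZwnt11/slb and 25.5 CPM in wild-type EVL-like cells, against 39.6 CPM and 29.0 CPM in deep cells (log2 0.20 ± 0.16, adjusted p = 0.39). In CPM *tjp1b* was thus below its deep level in EVL-like cells of each library, and *tjp3* was above it.

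Differences were smaller for the other claudins called. *cldnd* had 176 CPM in MZwnt11/slb and 193 CPM in wild-type EVL-like cells, against 131 CPM and 118 CPM in deep cells, and was higher in EVL-like cells on either scale (log2 1.06 ± 0.12, adjusted p = 0.00021, and 0.57 with library totals, adjusted p = 0.0072). *cldng* had 57.5 CPM and 69.1 CPM in EVL-like cells, against 48.8 CPM and 48.2 CPM in deep cells, and was called with TMM only (log2 0.87 ± 0.15, adjusted p = 0.0018, and 0.38 with library totals, adjusted p = 0.064). *cldnd1b* was the rarest gene called, with 14 UMIs in MZwnt11/slb and 22 UMIs in wild-type EVL-like cells (log2 2.17 ± 0.45, adjusted p = 0.0060).

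The 5 remaining claudins were not called in the fit. *cldn12* had 16.9 CPM in MZwnt11/slb and 25.3 CPM in wild-type EVL-like cells, against 23.6 CPM and 50.8 CPM in deep cells (log2 −0.26 ± 0.19, adjusted p = 0.32). *cldn11b* had 8.28 CPM and 2.16 CPM in EVL-like cells, against 15.8 CPM and 3.94 CPM in deep cells (log2 −0.43 ± 0.26, adjusted p = 0.24). With library totals both were lower in EVL-like cells (adjusted p = 0.014 and 0.019). *cldn10b* had the lowest fitted difference of the 24 (log2 −0.71 ± 0.50, adjusted p = 0.31), from 8 and 2 UMIs in EVL-like cells of MZwnt11/slb and wild type. For *cldn17* and *cldnd1a* the fitted log2 differences were 0.41 ± 0.36 and 0.07 ± 0.26.

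The EVL keratins were taken as a guide to the level that EVL RNA reaches in deep cells. Whether deep cells express some keratin themselves was not tested. The source of any EVL RNA there, such as RNA set free by other cells or doublets, was not tested either. The level of the keratin genes *krt4*, *krt5*, *krt92*, *krt17*, *cyt1* and *cyt1l* in deep cells was 0.301% to 0.574% of that in EVL-like cells in MZwnt11/slb and 0.323% to 0.761% in wild type. For the 10 tight junction genes with at least a 16-fold fitted difference, the same percentage was 0.423% to 9.08% in MZwnt11/slb and 0.423% to 8.68% in wild type. In each library 4 of the 10 lay at or under the highest of these 6 keratins. *cldne* (0.472% in MZwnt11/slb and 0.693% in wild type), *cldnb* (0.573% and 0.572%) and *cldnf* (0.423% and 0.526%) lay within the keratin range in both. Whether their summed deep level is expression by deep cells was not tested. Cluster 16 held 164 of the 908 *cldne* UMIs of deep cells in MZwnt11/slb and 162 of the 1571 in wild type. Another abundant EVL keratin, *krt18a.1*, stood higher, at 0.881% in MZwnt11/slb and 0.874% in wild type, and 5 of the 10 genes in MZwnt11/slb and 6 in wild type lay at or under it, *cldn23a* among them in both. *oclnb* (6.83% and 8.68%) and *cldn7b* (9.08% and 7.21%) lay above every one of these keratins in both libraries, as did *tjp3* (11.99% and 11.1%) and *oclna* (23.3% and 31.6%).

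**Figure D2:**
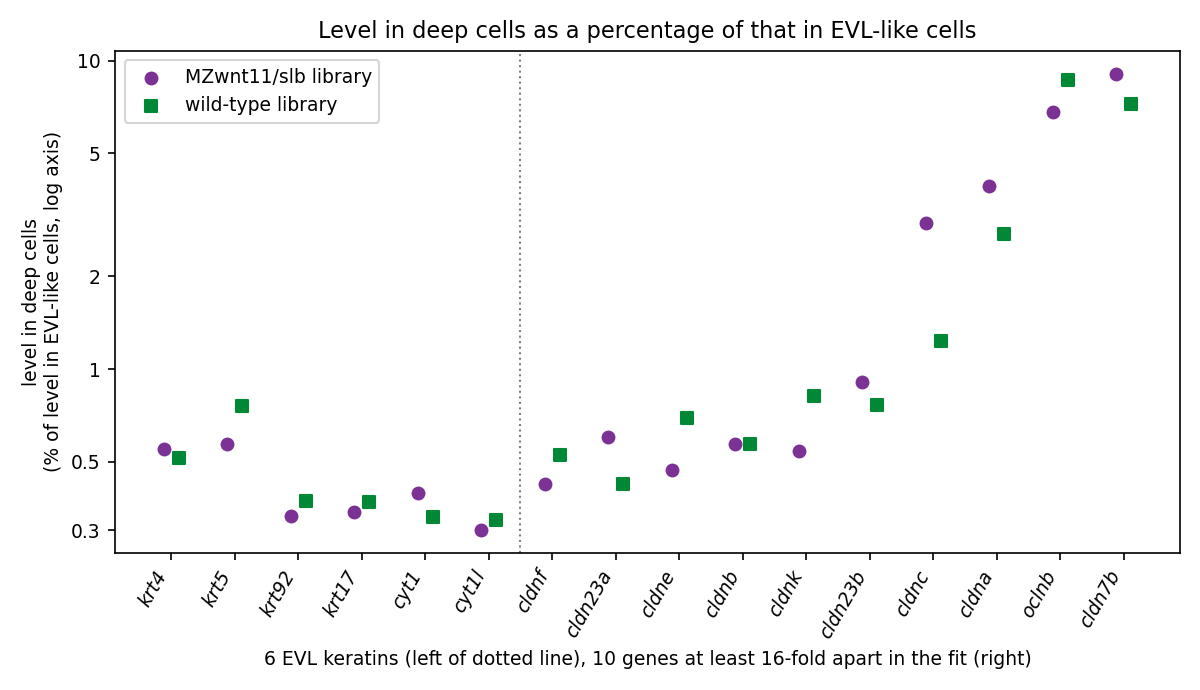
Level in deep cells as a percentage of the level in EVL-like cells (log axis) for 6 EVL keratins, left of the dotted line, and for the 10 genes with at least a 16-fold fitted difference, right of it, in the MZwnt11/slb library (purple circles) and the wild-type library (green squares). The keratins lie between 0.301% and 0.761%, the claudins cldnf, cldne and cldnb lie in the same range, and oclnb and cldn7b lie between 6.83% and 9.08%.

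The contrast was visible in single cells. Each cell was thinned to 2944 UMIs so that depth was equal, which kept 730 MZwnt11/slb and 774 wild-type EVL-like cells and 6061 MZwnt11/slb and 5808 wild-type deep cells. A thinned EVL-like cell held UMIs of a median of 8 of the 41 genes in either library (interquartile range 6 to 9 in MZwnt11/slb and 7 to 9 in wild type), and a thinned deep cell of a median of 2 (1 to 3 in either). Without thinning the medians were 10 and 10 in EVL-like cells, against 3 and 2 in deep cells. At least 5 of the genes were found in 95.6% of MZwnt11/slb and 97.9% of wild-type EVL-like cells, against 5.79% and 3.98% of deep cells.

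**Figure D3:**
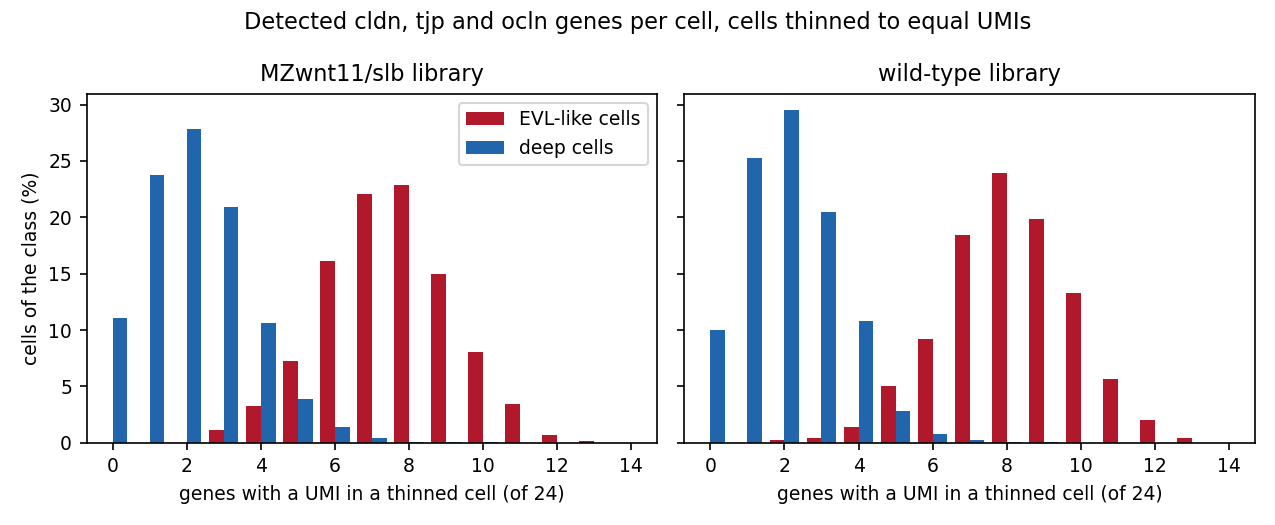
Number of the 41 genes with at least 1 UMI in a cell thinned to 2944 UMIs (horizontal axis) and the percentage of EVL-like (red) and deep (blue) cells with that number, for the MZwnt11/slb library (left) and the wild-type library (right). The axis label names the 24 detected genes, but all 41 were counted. Deep cells peak at 2 genes and EVL-like cells at 8 genes in both libraries.

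For *cldne* a UMI was found in 99.2% of thinned EVL-like cells in MZwnt11/slb and 100% in wild type, against 5.41% and 8.94% of deep cells. For *cldn7b* the shares were 96.0% and 96.4% of EVL-like cells, against 30.5% and 23.0% of deep cells. For *oclna* they were 77.3% and 82.0% of EVL-like cells, against 30.3% and 43.7% of deep cells. The part of EVL RNA in these deep shares was not tested. *cldnk* was found in only 2.60% and 7.36% of thinned EVL-like cells, and at this depth so few UMIs do not show in how many cells it was expressed.

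Cluster 12 differed from the other EVL-like clusters. *cldne*, *cldn23a*, *cldnb*, *cldn7b* and *oclnb* reached 39.3% to 44.1% of their cluster 10 level there in MZwnt11/slb and 49.8% to 53.6% of their cluster 9 level in wild type. The keratin *krt4* stood at 42.8% and 50.2%. For *tjp1a* (86.6% and 94.7%), *cldng* (93.2% and 91.1%) and *tjp1b* (163% and 138%) the values were nearer to or above 100%. Paraxial mesoderm markers, all 10 with a UMI, summed to 1017 CPM in MZwnt11/slb and 1411 CPM in wild-type cells of cluster 12. They summed to 79.4 CPM in cluster 10 and 145 CPM in cluster 9, where 9 of 10 had one. Other marker lists went either way. Neural ectoderm markers summed to 1707 CPM and 1382 CPM in cluster 12, against 632 CPM in cluster 10 and 632 CPM in cluster 9. Prechordal plate markers summed to 765 CPM and 776 CPM in cluster 12, against 1299 CPM and 1176 CPM. The median UMI count per cell was 8780 in MZwnt11/slb and 7245.5 in wild-type cells of cluster 12, against 5275 in cluster 10 and 4982 in cluster 9. Doublets were not called, and their part in this cluster was not tested. Without cluster 12 the count of genes higher in EVL-like cells was again 17, and the ratio of summed levels was log2 4.02 in MZwnt11/slb and 4.08 in wild type.

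Among the larger named classes of deep cells, summed levels of the tight junction genes varied less. Cluster 5, the primordial germ cell-like cells and cluster 16, described below, lay above their range in both libraries. Summed over the genes, the 7 named deep classes with at least 50 cells per library ranged from 755 CPM (dorsal epiblast-like) to 955 CPM (non-neural ectoderm-like) in MZwnt11/slb and from 744 CPM (paraxial mesoderm-like) to 877 CPM (non-neural ectoderm-like) in wild type. The name non-neural ectoderm-like is weak. Its 8 markers summed to 503 CPM in MZwnt11/slb and 681 CPM in wild type there, against 527 CPM and 701 CPM in neural ectoderm-like cells. Neural ectoderm markers summed to 2921 CPM and 2833 CPM there, against 3054 CPM and 3005 CPM in neural ectoderm-like cells. An F test over these classes with library as a term called 8 of the 19 genes with 50 UMIs there, with 22.0% of the 12158 genes tested called. The 8 were *oclna*, *cldnd*, *cldne*, *cldn7b*, *tjp1b*, *tjp3*, *oclnb* and *cldn12*. The count moved between 5 and 16 with the clustering, and was 4 with a filter on cells that also changed the clustering. At resolution 0.5, which gave 16, a cluster of 336 cells that passed 12 EVL markers was named by 3 endoderm markers and so counted as deep. *cldne*, *cldn12* and *tjp1b* were called in all settings but DESeq2, which did not call *cldn12*. With the filter on cells *oclna*, *tjp3*, *cldn7b* and *oclnb* were not called.

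*oclna* had the lowest adjusted p over the classes (5.2e-05, edgeR), but with the filter on cells neither *oclna* nor *tjp3* was called. Among the 7 tested classes *oclna* was highest in non-neural ectoderm-like cells, at 155 CPM in MZwnt11/slb and 228 CPM in wild type. Its lowest level among them was in prechordal plate-like cells, at 98.9 CPM and 154 CPM. *tjp3* followed with 77.0 CPM and 65.3 CPM in non-neural ectoderm-like against 53.3 CPM and 36.9 CPM in prechordal plate-like cells (adjusted p = 0.010). The prechordal plate and paraxial mesoderm are mesendodermal tissues that move inwards at gastrulation.

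*tjp1b* and *cldn12* were lower in paraxial mesoderm-like than in neural ectoderm-like cells of both libraries. The neural ectoderm-like cells included cluster 4 (1702 cells), which had mitochondrial genes among its leading genes. Its median mitochondrial share was 13.3% in MZwnt11/slb and 8.95% in wild type. Without cluster 4 both genes were still called over the classes. *tjp1b* had 28.7 CPM in MZwnt11/slb and 19.4 CPM in wild-type paraxial mesoderm-like cells, against 43.0 CPM and 31.0 CPM in neural ectoderm-like cells (adjusted p over the classes = 0.0082). *cldn12* had 13.4 CPM and 37.9 CPM in paraxial mesoderm-like cells, against 27.5 CPM and 57.0 CPM in neural ectoderm-like cells (adjusted p = 0.019). *cldnd* had 158 CPM and 141 CPM in prechordal plate-like and 149 CPM and 153 CPM in stress-like cells, 129.9 CPM and 123 CPM in non-neural ectoderm-like cells, and 111 CPM and 95.2 CPM in neural ectoderm-like cells (adjusted p = 0.00022).

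Over the 7 tested classes *cldn7b* ranged from 105 CPM (neural ectoderm-like) to 153 CPM (non-neural ectoderm-like) in MZwnt11/slb. In wild type it ranged from 79.1 CPM (ventrolateral margin-like) to 106 CPM (non-neural ectoderm-like) (adjusted p = 0.0021). For *cldne* the highest of these classes was paraxial mesoderm-like in both libraries, at 34.3 CPM in MZwnt11/slb and 69.9 CPM in wild type (adjusted p = 0.00087). The summed EVL markers there were 913 CPM and 936 CPM, against 730.4 CPM over all deep cells of each library. These sums include *cfl1l*, whose level in deep cells was near that in EVL-like cells. For *oclnb* the highest of the 7 tested classes was prechordal plate-like, at 29.0 CPM and 32.1 CPM (adjusted p = 0.019). EVL markers summed to 931 CPM and 957 CPM there. The part of EVL RNA in these class differences was not tested.

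**Figure D4:**
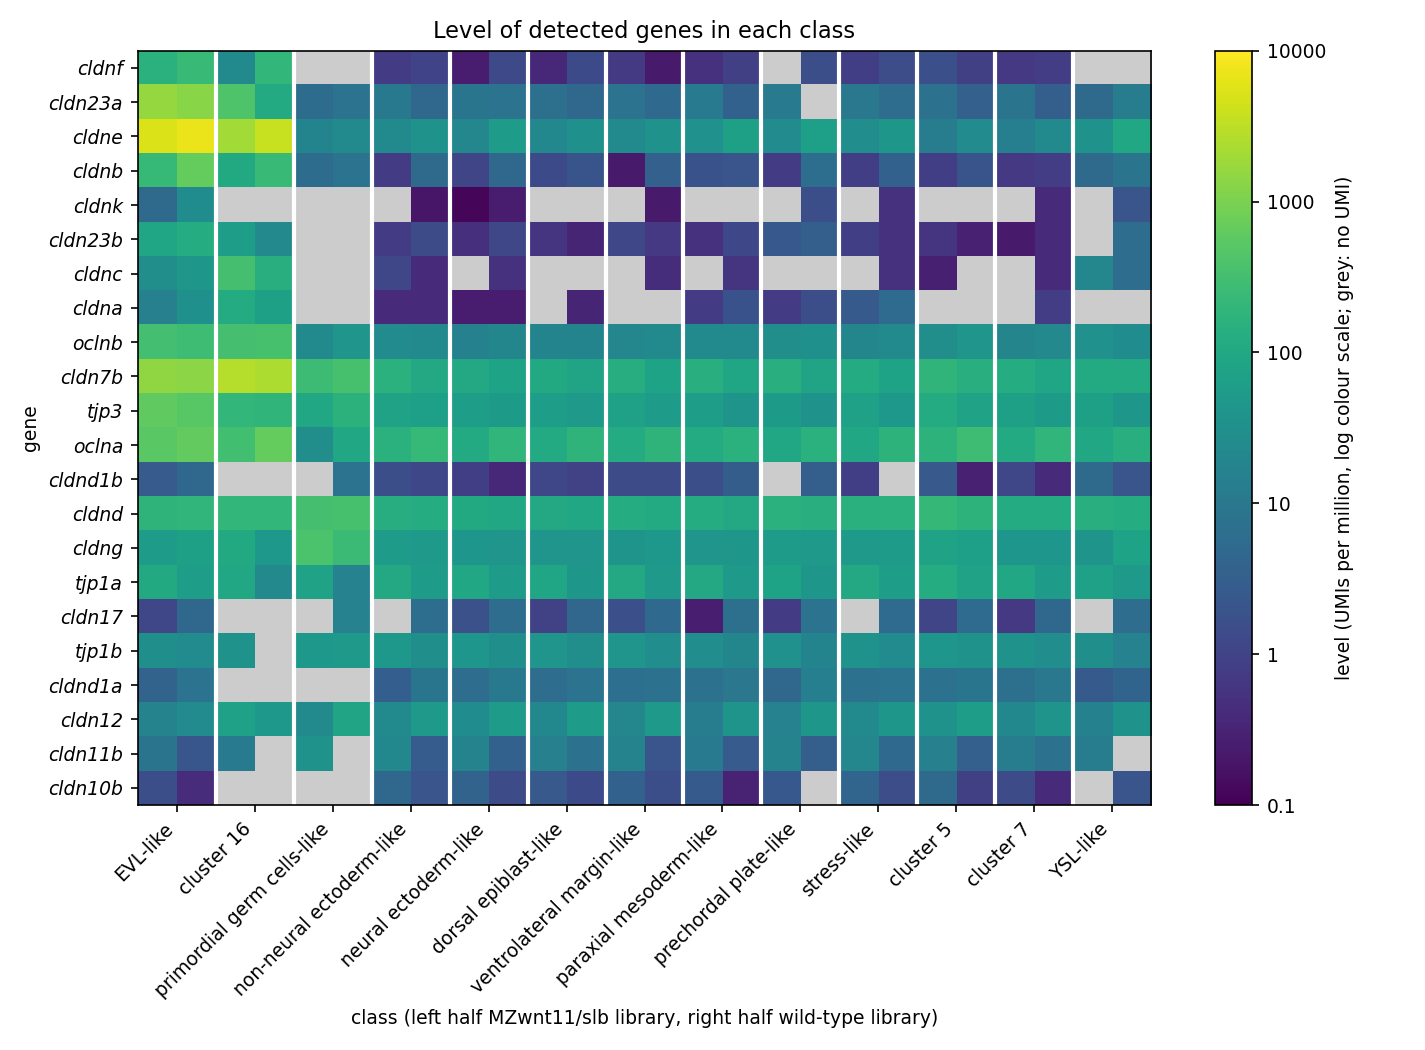
Level of detected genes (rows, ordered by the fitted EVL-like over deep difference) in each class (columns, the left part of each from the MZwnt11/slb library and the right part from the wild-type library), in CPM on a log colour scale, with grey for no UMI. The upper claudins stand out in EVL-like cells and in cluster 16, and cldng and cldnd are highest in primordial germ cell-like cells.

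Cluster 5 (728 MZwnt11/slb and 820 wild-type cells) passed no list of markers and was led by *per1b* and *fgd4b*. Among deep classes with at least 50 cells per library, its cells had the highest summed level. The sum was 1173 CPM in MZwnt11/slb and 1101 CPM in wild type. Among their genes *cldnd* had 213 CPM and 169 CPM, *oclna* 171 CPM and 283 CPM, and *tjp3* 117 CPM and 74.96 CPM. *cldne* was at 12.6 CPM and 26.3 CPM, below its level over all deep cells, and EVL markers summed to 538 CPM and 524 CPM. A median of 3 genes was found per thinned cell in each library. This cluster entered no test, since it carries no name.

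Primordial germ cell-like cells, named by all 7 of the markers listed for them, differed in which tight junction genes they held. They were few, 25 cells in each library, so their values are descriptions with counting intervals. *cldng* had 66 UMIs (391 CPM) in MZwnt11/slb and 31 UMIs (253 CPM) in wild-type germ cell-like cells, against 47.1 CPM and 47.5 CPM in all other deep cells, log2 ratios of 3.05 (2.67 to 3.41) and 2.42 (1.85 to 2.93). *cldnd* was also higher there, at 332 CPM and 351 CPM (log2 1.35, 0.94 to 1.73, and 1.58, 1.11 to 2.01), and so was *cldn7b*, at 266 CPM and 351 CPM.

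*oclna* ran the other way in the germ cell-like cells. It had 5 UMIs (29.6 CPM) in MZwnt11/slb and 12 UMIs (98.0 CPM) in wild type, against 123 CPM and 199 CPM in other deep cells, log2 ratios of −2.06 (−3.68 to −0.84) and −1.02 (−1.98 to −0.22). EVL markers in the germ cell-like cells summed to 788 CPM and 449 CPM. In total the tight junction genes made up 1516 CPM in MZwnt11/slb and 1642 CPM in wild-type germ cell-like cells, against 859 CPM and 844 CPM in other deep cells.

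Cluster 16, with 18 MZwnt11/slb and 10 wild-type cells, had the highest summed level outside the EVL-like cells, 7352 CPM in MZwnt11/slb and 8567 CPM in wild type. Its leading genes were *foxj1a*, *tmem106ba*, *sox17*, *sox32*, *hey1* and *noto*. It met the marker rule for endoderm with 3 genes, but *foxj1a*, a regulator of motile cilia, and the notochord gene *noto* are not endoderm markers, and it is called by its number here. *cldn7b* had 232 UMIs (2824 CPM) in MZwnt11/slb and 105 UMIs (2418 CPM) in wild type, above the EVL-like level in each library by log2 0.92 (0.73 to 1.11) and 0.86 (0.57 to 1.14). *cldnc* had 27 UMIs (329 CPM) and 6 UMIs (138 CPM), above the EVL-like level by log2 3.45 (2.80 to 4.04) and 1.61 (0.15 to 2.76).

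*cldne* in cluster 16 was below the EVL-like level, with 1996 CPM in MZwnt11/slb and 3731 CPM in wild type (log2 −1.48, −1.71 to −1.26, and −0.91, −1.15 to −0.69). *oclnb* had 329 CPM and 345 CPM there, against 317 CPM and 286 CPM in EVL-like cells. EVL markers summed to 8423 CPM and 8774 CPM in cluster 16, against 78024 CPM and 88167 CPM in EVL-like cells, and their part in the levels of the claudins was not tested. A median of 6 of the genes was found per thinned cell of cluster 16 in each library (14 MZwnt11/slb and 8 wild-type cells).

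Other components of the tight junction and of apical polarity were read from a list of 53 symbols, of which 47 were in the files and 32 had at least 50 UMIs. Unlike the cldn, tjp and ocln genes, the listed genes were not left out of the clustering that made the classes. Of these 32, 17 were higher in EVL-like cells, 3 were lower and 12 were not called, with a median log2 difference of 1.08. Over all genes tested 18.3% were higher and 16.5% lower. The highest were *pard6gb* (log2 6.54 ± 0.19) and *pard6a* (6.21 ± 0.24), both Par6 polarity adaptors, *marveld2b* (6.41 ± 0.17), a tricellulin found at corners between cells, and *crb3b* (5.68 ± 0.20), a Crumbs apical determinant. In the RefSeq table *marveld2b* stands next to *oclnb* and *marveld2a* next to *oclna*. *marveld2a* was not called, at 6.90 CPM in MZwnt11/slb and 6.91 CPM in wild-type EVL-like cells, against 10.2 CPM and 15.0 CPM in deep cells (log2 −0.35 ± 0.24, adjusted p = 0.30). It was singled out after its value was seen, for its place.

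Lower in EVL-like cells were *amotl2a* (log2 −1.72 ± 0.17, adjusted p = 7.8e-05), an angiomotin-like protein, *magi1b* (−0.91 ± 0.13, adjusted p = 0.00070), a junction scaffold, and *llgl1* (−0.88 ± 0.22, adjusted p = 0.013), a basolateral polarity protein. *sympk*, the next lowest, was not called (−0.42 ± 0.15, adjusted p = 0.059). For *magi1b* the levels were 98.5 CPM in MZwnt11/slb and 53.3 CPM in wild-type EVL-like cells, against 233 CPM and 158 CPM in deep cells. Genes of the tight junction and its polarity machinery thus moved in both directions, and the cldn, tjp and ocln genes had no called member among the lower ones on the TMM scale.

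The study set MZwnt11/slb embryos beside wild type. With 1 library per genotype no test between them was possible, and genotype, clutch and library cannot be told apart. EVL-like cells were also split by library in the clustering (clusters 10 and 9). Genes were counted as apart when their levels differed at least 2-fold, over genes that reached 50 UMIs in the class with both libraries joined. In EVL-like cells 5 of 21 tight junction genes were at least 2-fold apart, 4 lower in MZwnt11/slb and 1 higher, and of all 7845 genes 14.9% were (8.25% lower and 6.69% higher). In deep cells 5 of 21 were, 3 lower and 2 higher, and of all 12744 genes 18.3% were (11.3% lower and 7.09% higher).

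**Figure D5:**
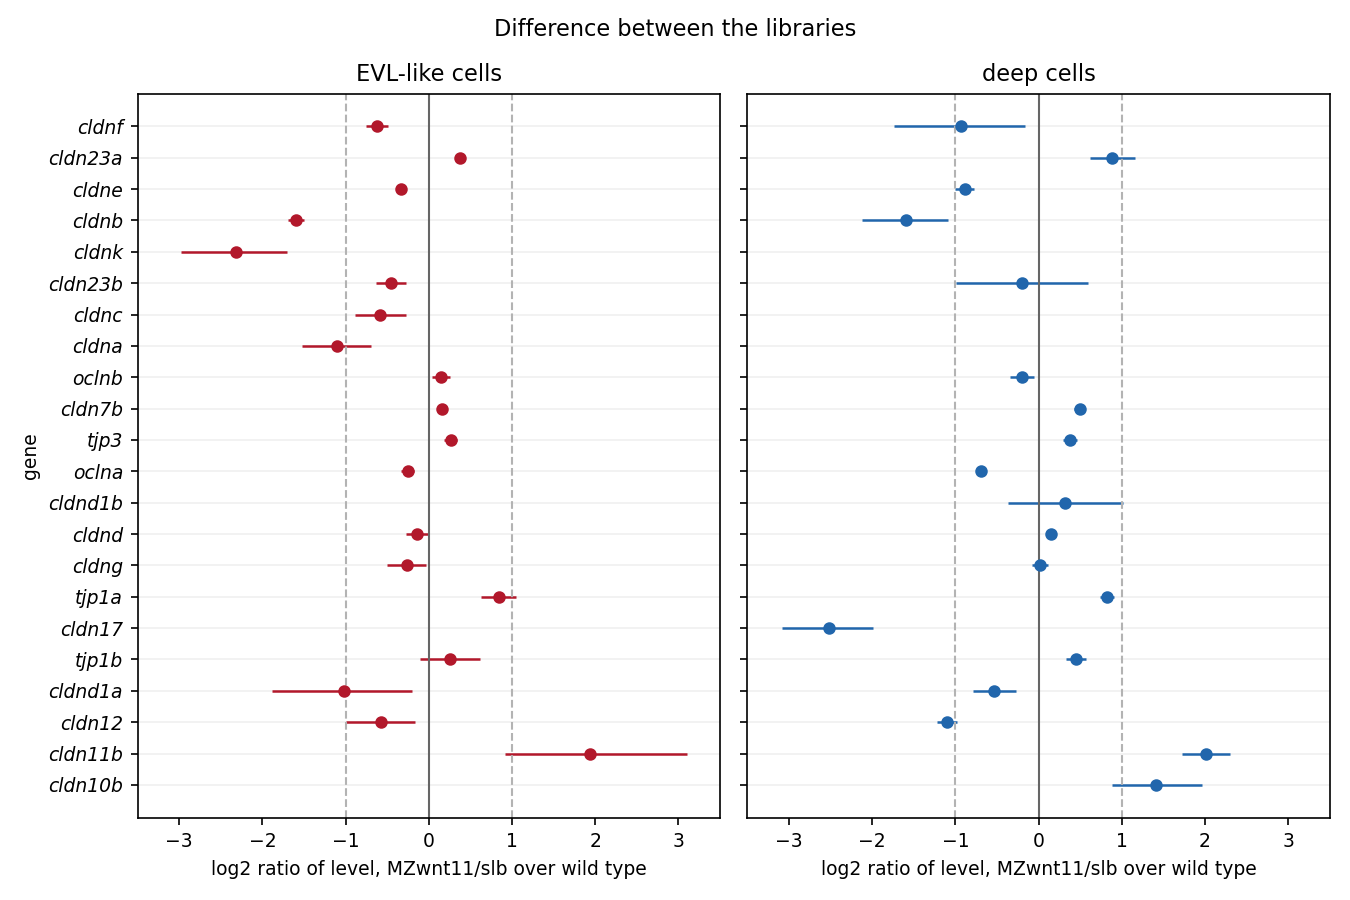
Log2 ratio of the level in MZwnt11/slb over that in wild type, in EVL-like cells (left, red) and deep cells (right, blue), for detected genes that reached 50 UMIs there. Bars are exact 95% intervals of the ratio of Poisson counts, the solid line marks no difference and dashed lines mark a 2-fold difference. cldnb and cldnk lie left of the dashed line in EVL-like cells (−1.60 and −2.32), and cldn11b lies right of it in both classes (1.94 and 2.01).

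The claudin with the largest number of UMIs among those apart was *cldnb*. It had 222 CPM (1128 UMIs) in MZwnt11/slb and 672 CPM (3112 UMIs) in wild-type EVL-like cells, a log2 ratio of −1.60 (−1.70 to −1.50). Its level was 279 CPM in cluster 10 (MZwnt11/slb) and 761 CPM in cluster 9 (wild type), and 123 CPM in MZwnt11/slb and 403 CPM in wild-type cells of cluster 12, so it was lower in MZwnt11/slb within either part. A UMI of *cldnb* was found in 45.3% (41.7 to 49.0) of thinned MZwnt11/slb and 78.6% (75.5 to 81.4) of thinned wild-type EVL-like cells. Keratins of the same cells differed among themselves, with *cyt1l* at 1191 CPM in MZwnt11/slb and 2716 CPM in wild type, and *krt17* at 2934 CPM and 2358 CPM.

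Also lower in MZwnt11/slb EVL-like cells were *cldnk*, with 27 UMIs in MZwnt11/slb and 123 UMIs in wild type (log2 −2.32, −2.98 to −1.71), *cldna*, with 75 UMIs and 147 UMIs (−1.10, −1.52 to −0.69), and *cldnd1a*, with 20 UMIs and 37 UMIs (−1.02, −1.88 to −0.20). Without cluster 12 the count of genes apart was 3 in place of 5, *cldnb* (−1.45), *cldnk* (−2.16) and *cldna* (−1.001). The abundant claudins differed by less. *cldne* had a log2 ratio of −0.34 (−0.36 to −0.31), *cldn23a* of 0.37 (0.33 to 0.42) and *cldn7b* of 0.16 (0.12 to 0.21). The median over the 21 genes was −0.25, with 0.0072 over all genes of the class.

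In deep cells *cldn11b* was higher in MZwnt11/slb, at 15.8 CPM (547 UMIs) against 3.94 CPM (127 UMIs) in wild type, a log2 ratio of 2.01 (1.73 to 2.30). In EVL-like cells its log2 ratio was 1.94 (0.92 to 3.099), from 42 UMIs in MZwnt11/slb and 10 UMIs in wild type. Of the classes with at least 50 UMIs of the gene, 8 of 8 had a ratio above 0, between 0.73 and 3.07, and the interval excluded 0 in 7. *cldn10b* was higher as well, with 114 UMIs in MZwnt11/slb and 40 UMIs in wild-type deep cells (log2 1.41, 0.88 to 1.97).

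*cldn17* and *cldn12* were lower in MZwnt11/slb deep cells. *cldn17* had 35 UMIs in MZwnt11/slb and 187 UMIs in wild type (log2 −2.52, −3.08 to −1.99). *cldn12* had 23.6 CPM in MZwnt11/slb and 50.8 CPM in wild type (log2 −1.10, −1.23 to −0.98), and was lower in 9 of 9 classes, by log2 −0.58 to −1.50. *cldnb* was lower in deep cells by the same log2 −1.59 (−2.13 to −1.09), within the keratin range given above. The median over the 21 genes was 0.14, with −0.096 over all genes of the class.

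Several genes had the same sign in every class with at least 50 of their UMIs, and these classes share their library and so do not replicate each other. The share of all genes with 1 sign in every class is not given. Such counts, here and above, are therefore not read as a result about the tight junction genes. *tjp1a* was higher in MZwnt11/slb in 11 of 11 classes, by log2 0.46 to 1.03, with 107 CPM in MZwnt11/slb and 59.8 CPM in wild-type EVL-like cells. *cldn7b* was also higher in 11 of 11 classes (0.0026 to 0.74), *tjp1b* in 10 of 10 (0.25 to 0.94) and *tjp3* in 10 of 10 (0.24 to 0.68). *oclna* was lower in 11 of 11 (−0.78 to −0.25). The counting interval excluded 0 in 10 of 11 classes each for *tjp1a*, *cldn7b* and *oclna*. It did so in 8 of 10 for *tjp3* and in 5 of 10 for *tjp1b*. *cldne* was lower in 11 of 11 (−1.47 to −0.34), but at a clustering resolution of 0.5, where the deep cells held the cluster of 336 cells with 12 EVL markers, its ratio over all deep cells was 0.14.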

How the data were processed

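Single-cell libraries of shield-stage zebrafish embryos (1 MZwnt11/slb, 1 wild type) were analysed from UMI count matrices that the authors deposited, as raw counts per gene and cell. The submitters' processing notes and the file headers name Cell Ranger 6.1.1 and GRCz11, whereas the study's methods name another release. The treatment of intronic reads is not given in the sources used. No cell was removed and doublets were not called. Cells were scaled to equal depth, log-transformed, reduced to 30 components with depth regressed and libraries centred, and clustered (20 neighbours, Leiden resolution 1) without the 41 genes, in Python 3.11.15 with scanpy 1.11.5. Clusters were named by at least 3 markers with 10 UMIs and a fold of 1.5, a rule set after the clusters were seen, and 15 of 17 received a name. Between lists, the one with the most markers among the 10 leading genes of the cluster was taken first. The number of passing markers came second. Raw counts were summed per library and class. EVL-like and deep sums were compared with the quasi-likelihood test of edgeR 4.0.16 (R 4.3.3), with library as a term, TMM scaling and a minimum of 50 UMIs. These are 4 sums with 1 residual degree of freedom, and the libraries were not stated to be separate replicates, so p-values measure the spread between these sums only. The SE beside a fitted difference is its absolute value divided by the square root of the F statistic, and is approximate. The 7 deep classes were compared by an F test in the same way. Between genotypes, exact 95% conditional Poisson intervals were used with no test, and shares of cells have exact Clopper-Pearson intervals. Intervals cover counting error only.

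The members, gene lists and tests were chosen with earlier results of these data known. Named genes were the 12 with the most UMIs, the 5 highest and 5 lowest EVL-like over deep ratios, the tjp and ocln genes and those at least 2-fold apart between libraries, which covered 21 genes, and the 4 highest and 4 lowest partner genes. *cldnc*, *cldn23b*, *cldnd1b* and the claudins under other symbols fell outside this rule and were named after their values were seen. On simulated data the EVL-like fit (13347 genes) recovered 93% of 2-fold and 100% of 4-fold changes, and the deep-class fit (12158 genes) 92% and 100%. Only 200 genes were changed there, all with at least 200 UMIs, at 1 fixed dispersion and with no other class difference. The shares therefore do not give the power for rarer genes or for the spread of the real data. Alternatives were other clustering resolutions, the 41 genes kept, no centring, a cell filter, a keratin gate, named deep classes only, RLE factors, DESeq2 1.42.0, no count filter, no library term, each library alone, thinning, and totals without mitochondrial and ribosomal genes. Chosen after seeing the data were leaving out clusters 12, 4 or 16 or the stress-like class, and library totals in place of TMM. Sequences and promoter motifs were not used here. Some genes that meet the naming rule are counted in the totals but are not reported here.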

Additional observations from a re-analysis of the deposited data

Results flagged for a closer look

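For *oclnb* and *cldnd* the libraries differed in opposite directions in EVL-like and deep cells, a difference between classes that was not tested because there was 1 library per genotype. *oclnb* had a log2 ratio of MZwnt11/slb over wild type of 0.15 (0.04 to 0.26) in EVL-like cells and −0.20 (−0.34 to −0.05) in deep cells. *cldnd* had −0.14 (−0.27 to −0.0014) in EVL-like cells and 0.15 (0.08 to 0.21) in deep cells. The EVL-like ratio minus the deep ratio was 0.35 (0.17 to 0.52) for *oclnb* and −0.28 (−0.43 to −0.14) for *cldnd*, with intervals that cover counting error only. At a clustering resolution of 0.5 the deep ratio of *oclnb* was 0.022.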

How the results depend on the processing

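The count of tight junction genes higher in EVL-like cells was 17 in 12 of the 15 alternatives run on both libraries, 14 with library totals, 13 without the library term and 18 without the count filter, and the count lower was 0 in all but library totals, where it was 3. Without the library term *cldng* was not called either (adjusted p = 0.080, edgeR). The 8 genes that differed among deep classes became 4 with a filter of 1000 UMIs and 10% mitochondrial UMIs, 5 without centring and 16 at resolution 0.5. The 5 genes at least 2-fold apart between libraries in EVL-like cells became 3 with a keratin gate, 3 without cluster 12, 2 after thinning, 2 at resolution 0.5 and 16 without the count filter, and the 5 in deep cells became 15 without that filter. Shares over all genes under these settings are not given, so these counts are not read as a result about the tight junction genes. The summed EVL-like over deep ratio (log2 3.70 in MZwnt11/slb) was 3.73 with the gate, 4.02 without cluster 12, 3.66 with the cell filter, 3.63 without mitochondrial and ribosomal genes, 3.72 without cluster 16, 3.66 without cluster 4, 3.75 against named deep classes, 3.80 after thinning and 3.62 at resolution 0.5. In wild type (3.90) it was 4.08 without cluster 12, 3.84 without mitochondrial and ribosomal genes, 3.95 against named deep classes, 3.96 after thinning and 3.77 at resolution 0.5. At resolution 0.5, where fewer cells were EVL-like (588 MZwnt11/slb and 696 wild type) and a cluster of 201 MZwnt11/slb and 135 wild-type cells with 12 EVL markers was named by endoderm markers and counted as deep, the deep MZwnt11/slb over wild-type ratios of *oclnb* (0.022) and *cldne* (0.14) were above 0. The causes were not tested. Each library alone gives values with no test. No paired analysis was possible because each genotype had 1 library, and the 2 classes of a library were already joined by the library term. With 1 residual degree of freedom and few UMIs for *cldnk*, *cldnd1b*, *cldn10b* and *cldn17*, small differences were not detectable at this depth.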
